A study of Homo sapiens with 6 samples.

Results

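The nuclear long non-coding RNA genes NEAT1, MALAT1, KCNQ1OT1, MEG3, H19 and PVT1 were read from a table of gene counts by their symbols, and all 6 were found among its 38167 genes. They were chosen by name, as RNAs known to be held in the nucleus, bound to chromatin or imprinted. Earlier results of these data were known when they were chosen. The RNA came from small extracellular vesicles shed by Cal27 spheroids. Cal27 is a long-used cell line that derives from a squamous cancer of the tongue. On day 14 the spheroids were embedded in Matrigel, which is a basement membrane extract that sets as a gel, at 12 mg/mL (stiff) or at 3 mg/mL (soft), with 3 libraries in each group and no other treatment or genetic change given in the labels. The labels call the libraries biological replicates without saying whether they came from separate cultures, so p-values measure the spread between these libraries, which may be in part technical. Where a cell keeps its RNA was not measured in these vesicle libraries, so the nuclear location of these RNAs is background.

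NEAT1 is the scaffold of paraspeckles, nuclear bodies built on its long isoform by proteins such as NONO and SFPQ. MALAT1 gathers in nuclear speckles beside splicing factors and is among the most abundant RNAs of many cells. KCNQ1OT1, an antisense transcript of the paternal KCNQ1 allele, silences neighbouring genes of its imprinted cluster in cis, while H19 and MEG3 are expressed from the maternal allele of theirs. H19, which is also found in the cytoplasm, is the primary transcript of miR-675. PVT1 lies beside MYC and is often gained with it in tumours.

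The long isoform of NEAT1 and MALAT1 lack an ordinary poly(A) tail: RNase P cuts their 3′ end ahead of a tRNA-like small RNA, and U-rich stretches fold onto an A-rich one in a triple helix. These ends are shown because they set both RNAs apart from polyadenylated transcripts. In the GENCODE transcripts they lie at chr11:65445441-65445540 for NEAT1 and chr11:65506019-65506116 for MALAT1, both on the plus strand of GRCh38. Capitals mark the 3 runs of letters searched, in this order and written as DNA, 2 U-rich ones and the A-rich one.
NEAT1: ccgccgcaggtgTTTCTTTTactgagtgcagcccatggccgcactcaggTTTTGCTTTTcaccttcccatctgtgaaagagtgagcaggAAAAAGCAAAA
MALAT1: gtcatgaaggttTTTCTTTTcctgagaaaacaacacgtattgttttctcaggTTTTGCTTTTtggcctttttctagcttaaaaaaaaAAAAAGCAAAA
The runs were chosen from what is known of these RNAs. Within 150 bases and on the transcript's own strand, they occurred together in 2 of 4505 long non-coding RNA transcripts (0.0444%), namely NEAT1 and MALAT1. The NEAT1 sequence ends with the transcript. The MALAT1 sequence ends where MASCRNA, the tRNA-like RNA, begins, with 0 bases between them (MASCRNA at chr11:65506117-65506174).

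H19 and MEG3 each hold a microRNA that has a row of its own in the table, and the mature forms from RefSeq (GRCh38.p14) are shown with the seed, bases 2 to 8, in capitals.
hsa-miR-675-5p: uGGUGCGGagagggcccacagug
hsa-miR-675-3p: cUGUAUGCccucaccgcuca
hsa-miR-770-5p: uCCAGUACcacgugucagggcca
MIR675 (chromosome 11, within H19) had 6, 5 and 5 counts in the stiff libraries and 6, 3 and 3 in the soft ones. MIR770 (chromosome 14, within MEG3) had 6, 9 and 12 in stiff and 11, 6 and 9 in soft. Both rows lie inside exons of the host gene, so their reads cannot be assigned to the microRNA, and both were too low to be tested. MASCRNA had 5, 6 and 1 counts in stiff and 1, 3 and 2 in soft libraries. It lies inside the exon block of MALAT1, so its reads cannot be assigned to the small RNA either. It was also too low to be tested.

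The stiff libraries held 2697502, 2900205 and 2977837 counts and the soft libraries 2445498, 2525947 and 2545385. Ribosomal RNA took 21.6% ± 1.44 of counts in stiff and 5.35% ± 3.11 in soft libraries, and the 13 mitochondrial messenger genes 0.176% ± 0.0219 in stiff and 1.63% ± 0.170 in soft (SD, n = 3 each). The part that these shifts play in the results below was tested only by the scalings named beside them. Squamous markers were all detected, 10 of 10, with summed counts of 872 to 959 in stiff and 778 to 880 in soft libraries. KRT14, a basal keratin and the highest of them per kb, passed the test described below (log2 fold change 0.69, edgeR adjusted p = 0.0281). With it, KRT5 (0.32), KRT17 (0.46) and DSP (0.36) made 4 of 10 at an unadjusted p under 0.05, against 9.51% of all genes, while TP63 (-0.12), KRT8 (-0.16) and EPCAM (-0.09) had values below 0. The part of this shift in the results on the 6 genes was not tested. Of 11 markers of fibroblasts, endothelium and blood 0 were at 0 in all libraries, with sums of 1044 to 1131 in stiff and 1141 to 1229 in soft, and HBA1, a haemoglobin chain, was the highest of them at 3.12 times the median gene per kb. Per kb of exon, the median marker stood at 1.20 times the library's median gene for squamous markers and at 0.925 times for the others, so the libraries hold counts of genes that a squamous line should lack.

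KCNQ1OT1 had the most counts of the 6 genes and PVT1 the fewest. KCNQ1OT1 (chromosome 11, 2608328 to 2699994, minus strand) had 1050, 1074 and 1055 counts in stiff libraries and 1101, 1109 and 1071 in soft ones. It ranked 1 of 12694 long non-coding RNA genes by mean count. NEAT1 (chromosome 11, 65422774 to 65445540, plus strand) had 490, 529 and 589 counts in stiff and 634, 676 and 632 in soft libraries, rank 4. MALAT1 (chromosome 11, 65497688 to 65506516, plus strand) had 214, 217 and 242 in stiff and 275, 273 and 270 in soft, rank 28. For NEAT1 and MALAT1 every stiff library lay below every soft library. These counts, and those of the genes below, are not scaled for library totals or for the share of ribosomal RNA. The share of all genes whose unscaled counts lie apart was not counted.

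MEG3 (chromosome 14, 100779410 to 100861031, plus strand) had 173, 180 and 194 counts in stiff libraries and 241, 216 and 225 in soft ones, again with no overlap. H19 (chromosome 11, 1995176 to 2001470, minus strand) had 120, 104 and 119 in stiff and 109, 90 and 95 in soft libraries, and its groups overlapped. PVT1 (chromosome 8, 127794533 to 128101253, plus strand) had 40, 40 and 33 in stiff and 36, 31 and 37 in soft libraries, which also overlapped. PVT1 ranked 3130 of the 12694 genes by count.

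**Figure D1:**
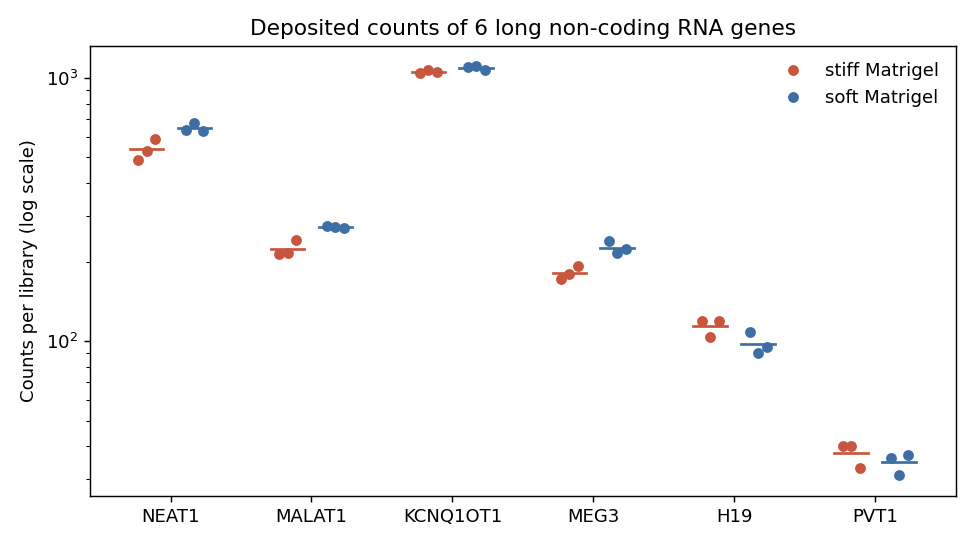
Deposited counts of each gene (log axis) in the 3 stiff libraries (left of each pair) and the 3 soft libraries, with points for libraries and lines for group means. NEAT1, MALAT1 and MEG3 are lower in every stiff library than in any soft one, and KCNQ1OT1 lies between 1050 and 1109 in all 6. Counts are not scaled between libraries.

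Counts of a long gene add up over more bases, so they were also set over annotated exon length. The union of annotated exons in GENCODE release 29 was 91667 bp for KCNQ1OT1, 23224 bp for MEG3, 22767 bp for NEAT1, 8829 bp for MALAT1, 5493 bp for PVT1 and 2897 bp for H19. KCNQ1OT1, NEAT1 and MALAT1 are single uninterrupted blocks, while MEG3 has 7 exon blocks, H19 4 and PVT1 21. Per kb of exon the order changed, and H19 came first.

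H19 had 39.5 ± 3.09 counts per kb in stiff and 33.8 ± 3.40 in soft libraries (SD, n = 3 each here and below). MALAT1 had 25.4 ± 1.74 counts per kb in stiff and 30.9 ± 0.285 in soft, and NEAT1 23.5 ± 2.19 in stiff and 28.4 ± 1.09 in soft. These 3 genes stood above the median of all genes with an exon length, which was 14.2 to 15.497 counts per kb in stiff and 15.517 to 16.3 in soft libraries. KCNQ1OT1 followed at 11.6 ± 0.138 counts per kb in stiff and 11.9 ± 0.219 in soft. MEG3 had 7.85 ± 0.460 in stiff and 9.79 ± 0.545 in soft, and PVT1 6.86 ± 0.736 in stiff and 6.31 ± 0.585 in soft. Over this length all 3 lay below that median in every library.

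Each gene in this order was above the next in 6 of 6 libraries, but the ranges of H19 and MALAT1, and those of MALAT1 and NEAT1, overlapped across libraries. The order of KCNQ1OT1, MEG3 and PVT1 rests on the length used. Over the longest transcript alone it was reversed, with PVT1 (1699 bp) at 18.2 to 23.5 counts per kb, MEG3 (12990 bp) at 13.3 to 18.6 and KCNQ1OT1 at 11.5 to 12.1. On that scale PVT1 stood at 0.875 to 1.31 times the library's median gene, no longer below it in every library, while MEG3 (0.701 to 0.903) and KCNQ1OT1 (0.580 to 0.636) stayed below. The authors' annotation is not given in the sources used here, and RefSeq starts MEG3 at 100826108, inside the GENCODE gene, so the lengths of the genes with several exon blocks are uncertain.

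**Figure D2:**
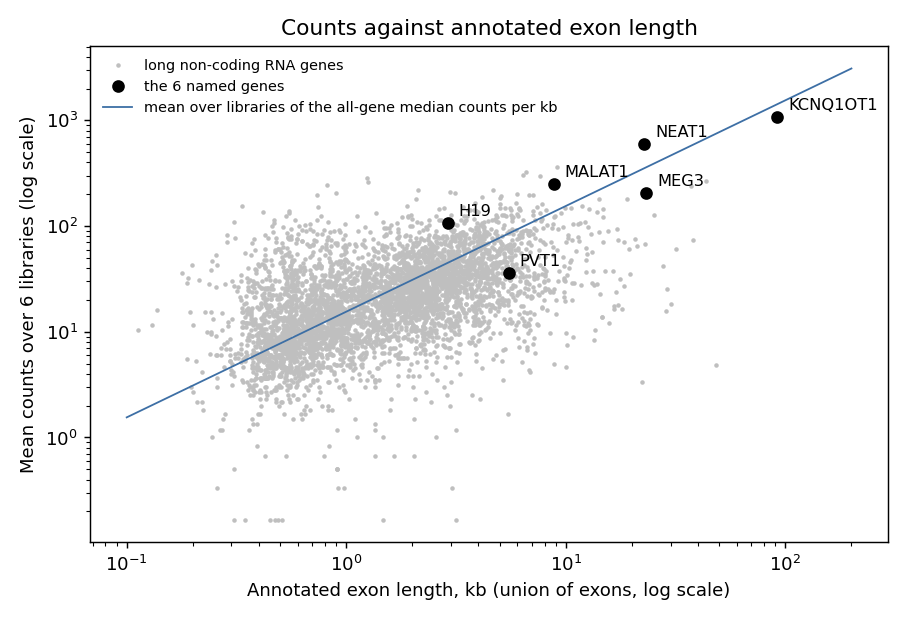
Mean counts over the 6 libraries against the union of annotated exons in kb (both log axes) for 4505 long non-coding RNA genes (grey, genes at 0 not drawn) and the 6 named genes (black). The line is the all-gene median counts per kb, and H19, MALAT1 and NEAT1 lie above it while KCNQ1OT1, MEG3 and PVT1 lie below.

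Against all genes, MALAT1 and NEAT1 were moderately high, at levels within the range of the markers of other cell types. Those 11 markers, of cells that a squamous line should lack, ran from 0.320 to 3.12 times the library's median, with a median of 0.925. MALAT1 stood at 1.70 ± 0.105 times the library's median in stiff and 1.93 ± 0.0389 times in soft libraries, at percentiles of 72.9 to 81.8 among 27205 genes. NEAT1 stood at 1.57 ± 0.108 times in stiff and 1.78 ± 0.0457 times in soft, at percentiles of 70.4 to 79.4. H19 was at 2.64 ± 0.304 times in stiff and 2.12 ± 0.217 in soft, percentiles of 81.1 to 91.7. KCNQ1OT1 was at 0.772 ± 0.0304 in stiff and 0.746 ± 0.00622 in soft. MEG3 was at 0.524 ± 0.0234 in stiff and 0.613 ± 0.0387 in soft, and PVT1 at 0.459 ± 0.0607 in stiff and 0.395 ± 0.0454 in soft. On this scale the 2 groups did not overlap for NEAT1, MALAT1 and MEG3, lower in stiff, nor, by a narrow gap, for KCNQ1OT1, higher in stiff. Each of them had an exact two-sided permutation p = 0.1, as low as 3 libraries against 3 can go. By the same exact test p = 0.2 for H19 and p = 0.3 for PVT1. Raw counts of KCNQ1OT1 overlapped. The share of all genes that lie apart was not counted on this scale, and was 14.1% of genes tested by the scaled counts used below.

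**Figure D3:**
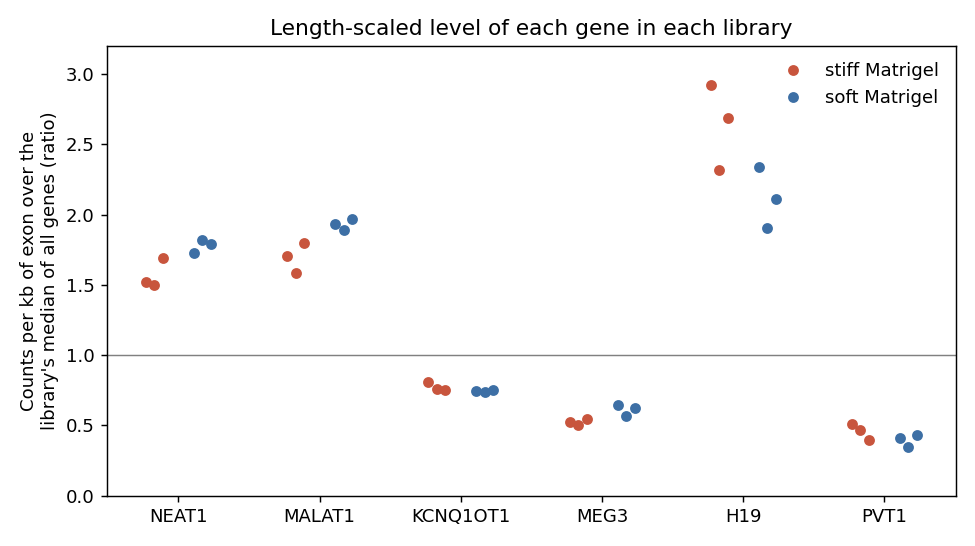
Counts per kb of exon divided by the median of all genes in the same library, for the 3 stiff (left) and 3 soft libraries of each gene. Ratios of H19, MALAT1 and NEAT1 are above 1 and those of KCNQ1OT1, MEG3 and PVT1 below 1 in all 6 libraries.

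Long non-coding RNA genes of like exon length gave another scale. The 26 such genes of 16 to 32 kb had a median of 39.7 counts and 1.86 counts per kb over the libraries, well under NEAT1 and MEG3, which belong to this class. KCNQ1OT1 was 1 of 5 genes over 32 kb, with a median of 240.3 counts. MALAT1 fell among 95 genes of 8 to 16 kb with a median of 4.31 counts per kb, and PVT1 among 472 genes of 4 to 8 kb with 8.20, which was above its own level. H19 fell among 1130 genes of 2 to 4 kb with a median of 10.9 counts per kb.

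Per kb, 5 of the 6 genes stood below the median of their neighbours in the genome. The median of 60 genes within 500 kb of MALAT1 was 34.6 to 47.3 counts per kb over the libraries, and MALAT1 stood at 0.628 to 0.773 of it. NEAT1, which lies 52147 bp away, stood at 0.601 to 0.717 of the median of 61 genes. KCNQ1OT1 stood at 0.396 to 0.461 (26 genes), MEG3 at 0.558 to 0.747 (107 genes, of which 12 were high enough to be tested) and PVT1 at 0.439 to 0.981 (13 genes). H19 was the exception, at 1.12 to 1.64 times the median of 40 genes. Most neighbours of MEG3 were too low to be tested. Their median of 12.8 to 13.9 counts per kb thus rests on genes with few counts, and cannot show that MEG3 was low.

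NEAT1 and MALAT1 kept a nearly fixed proportion. The ratio of NEAT1 to MALAT1 counts was 2.29, 2.44 and 2.43 in stiff and 2.31, 2.48 and 2.34 in soft libraries, against a ratio of exon lengths of 2.58 (exact permutation p = 1.0 between groups). Thus both genes had almost the same counts per kb in every library, with NEAT1 at 0.888 to 0.960 of MALAT1. TALAM1, the transcript from the opposite strand of MALAT1, had 194, 206 and 207 counts in stiff and 238, 208 and 220 in soft libraries. Per kb, over its annotated span of 8121 bp, TALAM1 was at 0.986, 1.03 and 0.930 of MALAT1 in stiff and 0.941, 0.828 and 0.886 in soft libraries, groups that overlapped (exact permutation p = 0.2). TALAM1 shares 7205 bp with MALAT1. The library kit marks strand per the labels, but the strand setting of the counting was not given in the sources used here, so reads of the 2 genes cannot be told apart.

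KCNQ1OT1 lies antisense inside KCNQ1, a potassium channel gene, with which it shares 121 bp of exon. Counts of KCNQ1 were 103, 127 and 143 in stiff and 109, 121 and 129 in soft libraries. Per kb of exon, KCNQ1OT1 stood at 0.495, 0.410 and 0.358 of KCNQ1 in stiff and at 0.490, 0.445 and 0.403 in soft libraries, with overlapping groups (exact permutation p = 0.8). KCNQ1OT1 therefore had fewer counts per kb than the exons of KCNQ1 in all 6 libraries. The strand setting of the counting was not given in the sources used here. Counts of KCNQ1OT1 may thus include reads of KCNQ1 from the opposite strand, and cannot be assigned to the antisense RNA alone.

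Between stiff and soft Matrigel none of the 6 genes passed the test across all genes. The values are CPM, counts set to a common library size by TMM, a factor per library that centres most genes on no change. The test was edgeR's quasi-likelihood test with Benjamini-Hochberg adjustment over 31074 genes (adjusted p under 0.05 as the threshold). Of all genes 0.451% passed (0.286% higher and 0.164% lower in stiff), and of the 6 genes 0 did. None of the 6 passed by limma-voom either, where 0.325% of all genes did, or by DESeq2, which gave no adjusted p for H19 and PVT1. At an unadjusted edgeR p under 0.05 there were 4 of the 6, 1 higher (H19) and 3 lower in stiff, against 9.51% of all genes (5.01% higher and 4.5% lower). This count depends on the method. Without adjustment limma-voom put the same 4 genes under that level. DESeq2 put just NEAT1 under it, and not MALAT1, MEG3 or H19. The share of all genes under that level was not counted for limma-voom or DESeq2. Values are relative within a library, so fewer vesicles with an RNA and less of it per vesicle cannot be told apart.

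NEAT1 had 201, 199 and 224 CPM in stiff and 233, 245 and 238 in soft libraries, with no overlap. Its log2 fold change was -0.20 ± 0.074 (SE, 95% interval -0.34 to -0.05; edgeR adjusted p = 0.279). MALAT1 had 88.0, 81.4 and 92.0 CPM in stiff and 101, 98.9 and 102 in soft, also with no overlap. Its log2 fold change was -0.21 ± 0.095 (interval -0.39 to -0.02; edgeR adjusted p = 0.451). MEG3 had 71.1, 67.6 and 73.8 CPM in stiff and 88.4, 78.2 and 84.8 in soft libraries, the third gene with no overlap. Its log2 fold change was -0.24 ± 0.10 (interval -0.45 to -0.04; edgeR adjusted p = 0.386). CPM of the groups lay apart with stiff lower for 3 of the 6 genes, and for 6.76% of all genes tested, while 0 of the 6 lay apart with stiff higher, as 7.38% of all genes did.

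H19 had higher values in stiff without passing, at 49.3, 39.0 and 45.2 CPM in stiff and 39.98, 32.6 and 35.8 in soft libraries, where 1 stiff library fell within the soft range. Its log2 fold change was 0.30 ± 0.14 (interval 0.02 to 0.58; edgeR adjusted p = 0.471). KCNQ1OT1 was the most even, at 432, 403 and 401 CPM in stiff and 404, 402 and 404 in soft libraries. Its log2 fold change of 0.03 ± 0.069 had an interval of -0.10 to 0.17 (edgeR adjusted p = 0.935). PVT1, with the fewest counts, had 16.4, 15.0 and 12.5 CPM in stiff and 13.2, 11.2 and 14.0 in soft libraries. Its interval of -0.28 to 0.67 around 0.19 ± 0.24 leaves the widest range of possible change (edgeR adjusted p = 0.865).

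**Figure D4:**
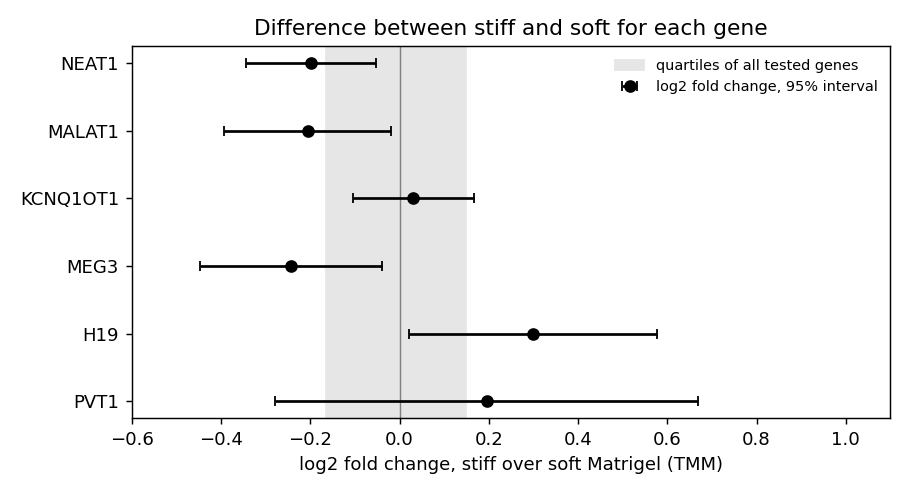
Log2 fold change of each gene, stiff over soft, with its 95% interval from the edgeR fit, and a grey band from the lower to the upper quartile of all tested genes. Intervals of NEAT1, MALAT1 and MEG3 lie below 0, that of H19 above 0 and those of KCNQ1OT1 and PVT1 across it, while no gene passed after adjustment.

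Ratios between the genes do not depend on depth. NEAT1 over KCNQ1OT1 was 0.467, 0.493 and 0.558 in stiff and 0.576, 0.610 and 0.590 in soft libraries, and the groups did not overlap (exact permutation p = 0.1). H19 over NEAT1 was 0.245, 0.197 and 0.202 in stiff and 0.172, 0.133 and 0.150 in soft libraries, again without overlap (exact permutation p = 0.1). Both pairs were picked after their values were seen. Together the 6 genes took 0.0754% ± 0.00177 of counts in stiff and 0.0948% ± 0.00322 in soft libraries, groups that did not overlap (exact permutation p = 0.1). With ribosomal RNA and mitochondrial genes left out of the total, the shares were 0.0964% ± 0.00337 in stiff and 0.102% ± 0.000905 in soft libraries, still without overlap (exact permutation p = 0.1). As a share of long non-coding RNA counts they took 0.618% ± 0.0194 in stiff and 0.624% ± 0.00663 in soft libraries, with overlap (exact permutation p = 0.8). All long non-coding RNA genes took 12.2% ± 0.275 of counts in stiff and 15.2% ± 0.607 in soft libraries (exact permutation p = 0.1). The gap between the groups was therefore widest over all counts, in which the share of ribosomal RNA was higher in stiff.

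GC content moved with the fold changes. The longest transcript held 40.3% GC in MALAT1, 43.7% in KCNQ1OT1, 44.1% in NEAT1, 48.1% in MEG3, 52.2% in PVT1 and 63.4% in H19. Over all tested genes the median log2 fold change was -0.03 at 40 to 42% GC (1937 genes) and 0.08 at 60 to 66% (2628 genes). MALAT1, NEAT1 and MEG3 lay below the lower quartile of their GC class (-0.18, -0.16 and -0.15), and H19 and PVT1 above the upper quartile of theirs (0.20 and 0.15). Such a place is common, since by definition as many genes of a class lie outside its quartiles as between them. With an offset for GC content, log2 fold changes were -0.17 ± 0.067 for NEAT1, -0.17 ± 0.093 for MALAT1, -0.23 ± 0.10 for MEG3 and 0.21 ± 0.14 for H19. Their unadjusted edgeR p-values in that fit were 0.0105, 0.0660, 0.0248 and 0.130, in the same order.

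**Figure D5:**
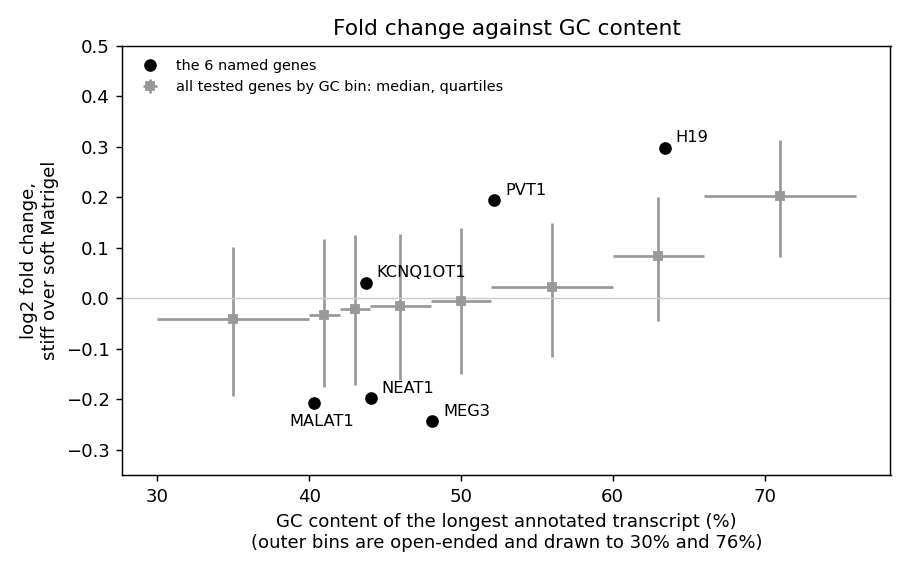
Log2 fold change, stiff over soft, against the GC content of the longest transcript, for the 6 genes (black) and for all tested genes by GC class (grey squares, medians; vertical bars, quartiles; horizontal bars, class width). The class medians run from -0.04 to 0.20, and 5 of the 6 genes lie outside the quartiles of their class. By definition as many genes of a class lie outside its quartiles as between them.

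Lists of partners and relatives of these RNAs were read beside all genes tested, of which 0.451% passed in edgeR and 9.51% had an unadjusted p under 0.05, so 0 calls in a list of this size is close to the background. Of 24 paraspeckle proteins tested, 0 passed in edgeR, and 2 had an unadjusted p under 0.05, DAZAP1 (log2 fold change 0.35) and TAF15 (0.36). The median log2 fold change of the list was 0.06, beside -0.0048 for all genes tested. NONO and SFPQ, which hold the NEAT1 scaffold together, had log2 fold changes of 0.03 and 0.22 (edgeR adjusted p = 0.987 for NONO and 0.5998 for SFPQ). Their levels were 0.368 and 1.16 times the median gene per kb, and SS18L1 was the highest of the list at 4.03 times. Of 24 nuclear speckle and splicing factors 0 passed and 1 had an unadjusted p under 0.05, RBM25 (0.35), with a list median of 0.02. SRRM2, a core protein of speckles, was the highest of them at 1.93 times the median gene.

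Among 20 other nuclear or chromatin-bound long non-coding RNAs 0 passed in edgeR, and 1 had an unadjusted p under 0.05, DLEU2 (-0.36). The list's median log2 fold change was 0.05, against -0.05 for the 9269 long non-coding RNA genes tested. Per kb its median member stood at 0.821 times the median gene, and TERC, the telomerase RNA, was highest at 2.90 times. Of 10 mostly cytoplasmic long non-coding RNAs 9 were tested, 0 passed, and 1 had an unadjusted p under 0.05, NORAD (0.27), which was also the highest of the list at 1.52 times the median gene. That list had a median log2 fold change of -0.25 and stood at a median of 0.399 times the median gene per kb. NORAD has a known role in keeping the genome stable from the cytoplasm.

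Imprinted genes of the same domains on 11p15.5 and 14q32 numbered 17, and 0 passed in edgeR, with 0 at an unadjusted p under 0.05, beside the same 0.451% and 9.51% of all genes. Their median log2 fold change was 0.07. IGF2, the growth factor gene that shares control elements with H19, had 175, 209 and 180 counts in stiff and 163, 204 and 209 in soft libraries (log2 fold change 0.04 ± 0.11, edgeR adjusted p = 0.948). CDKN1C, a cell cycle inhibitor of the KCNQ1OT1 cluster, had 99, 108 and 98 in stiff and 88, 85 and 100 in soft (0.23 ± 0.15, edgeR adjusted p = 0.644). DLK1, the neighbour of MEG3 expressed from the other parental allele, had 161, 130 and 151 in stiff and 149, 137 and 148 in soft (0.10 ± 0.12, edgeR adjusted p = 0.856). INS-IGF2, which shares exons with IGF2 and is uncertain for that reason, was the highest of this list at 4.99 times the median gene. Of 21 other imprinted genes 0 passed and 2 had an unadjusted p under 0.05, GNAS (0.19) and IGF2R (0.20). GRB10 was highest at 2.61 times the median gene.

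Around MALAT1 and PVT1, 10 of 11 listed genes were found and 0 passed in edgeR, with 0 at an unadjusted p under 0.05 and a median log2 fold change of -0.19. FRMD8 was the highest of these, at 3.07 times the median gene. MYC, the neighbour of PVT1, had 86, 122 and 91 counts in stiff and 103, 160 and 96 in soft libraries (log2 fold change -0.19 ± 0.14, edgeR adjusted p = 0.729). Of the genes within 500 kb of NEAT1 or MALAT1 just SIPA1 passed, higher in stiff, and around the other 4 genes 0 did.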

How the data were processed

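RNA of small extracellular vesicles, isolated by insulator-based dielectrophoresis, was sequenced as directional libraries from about 10 ng of RNA with 9 PCR cycles, per the labels' protocols. The authors deposited raw counts per gene symbol. The submitters' processing notes name Trim Galore 0.4.2, cutadapt 1.9.1, STAR 2.6.1e, featureCounts 1.6.2 and build hg38, while for gene annotation, strand setting and multiply mapping reads the choice is not given in the sources used here. Reads of overlapping, antisense or near-identical genes are therefore uncertain.

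Libraries were grouped by Matrigel concentration and numbered by their titles, since the descriptions give 2 stiff libraries the same number. The labels give no batch. All 38167 genes were fitted together with edgeR 4.0.16 (R 4.3.3) after its filter on low counts, with TMM scaling and the robust quasi-likelihood test of stiff against soft, and p-values were adjusted over the 31074 genes kept. DESeq2 1.42.0 and limma 3.58.1 (voom) were alternatives. Single values were compared by exact two-sided permutation over 3 against 3 libraries, where the smallest possible p is 0.1. Exon lengths and GC content came from GENCODE release 29 for 27205 genes (71.3%), as did the positions of the neighbours compared per kb. The GC offset was a loess curve per library. Totals of 2445498 to 2977837 counts set the precision. On simulated counts for 30652 genes the test recovered 22.4% of changes of 1.5-fold, 71.6% of 2-fold and 97.0% of 4-fold.

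The 6 genes were taken by symbol. By the rule set for other genes, the text names those of a list that passed the test, the one highest per kb in each list, antisense partners that overlap, and the gene most alike over the libraries. List members with an unadjusted p under 0.05, squamous markers with values below 0, and the partners and neighbours NONO, SFPQ, IGF2, CDKN1C, DLK1 and MYC, fall outside that rule and were named after their values were seen. The 6 genes and the lists were chosen with earlier results of these data known.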

Additional observations from a re-analysis of the deposited data

How the results depend on the processing

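NEAT1, MALAT1 and MEG3 stayed lower in stiff and H19 higher under all 16 alternatives, and none of the 6 genes passed under any but scaling by library totals alone. That scaling, in which ribosomal RNA counts enter the total, moved the median of all tested genes to -0.27 on the log2 scale. It called 4194 genes (31 higher and 4163 lower in stiff, against 140, 89 and 51 by TMM). These were 13.5% of all genes tested, with 13.4% lower in stiff. Of the 6 genes it called 4, all lower in stiff. Log2 fold changes were -0.47 for NEAT1, -0.48 for MALAT1, -0.51 for MEG3 and -0.24 for KCNQ1OT1, the last reversed. PVT1 was also reversed, at -0.0718, and was not called, while H19 was at 0.03. KCNQ1OT1 ranged from -0.00177 (without stiff replicate 1) to 0.0513 when 1 library was left out. Over all genes the GC offset gave 55 calls (30 higher, 25 lower), DESeq2 67 (47 higher, 20 lower) and DESeq2 without its filter on mean count, added after seeing the data, 43. Leaving out 1 library gave 60 (stiff 2) to 136 (soft 3). Apart from library totals, the smallest adjusted p of the 6 genes was 0.170 (NEAT1, limma-voom). The replicate number as a block gave 173 calls. Same-numbered libraries deviated together with correlations of 0.00407 to 0.00890, and differently numbered ones with -0.0131 to 0.00653. Values this small show no clear pairing but cannot exclude it, since counting error lowers such correlations. With the block 0 of the 6 genes passed. H19, MALAT1 and NEAT1 were the 3 genes above the median per kb, but 1, H19, was above the genes within 500 kb. Over the longest transcript PVT1 moved to a mean of 1.08 times the median, against 0.427 over all exons. The causes were not tested. Depth limits PVT1 most, and p-values cannot show that the groups are alike.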

Other observations

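The genes whose CPM followed each RNA most closely over the 6 libraries were picked by the smallest root mean square difference of centred log2 CPM, among 15765 genes with a mean of at least 50 counts. They were SURF2 for NEAT1 (0.0210, where the median gene had 0.196), LPA for MALAT1 (0.0273), RABL2A for KCNQ1OT1 (0.0159), NDRG4 for MEG3 (0.0357), AATK for H19 (0.0489) and BBC3 for PVT1 (0.0246). The difference between NEAT1 and MALAT1 themselves was 0.0431, and that between MEG3 and MALAT1 0.0478. With 6 libraries in 2 groups, such likeness is a description of these libraries.

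The spread of counts against counting error varied among the 6 genes. Their counts were not scaled here for library totals, which differ within a group, and an SD of 3 values is itself uncertain. NEAT1 had an SD of 49.9 in stiff and 24.8 in soft libraries, where counting error would give 23.2 in stiff and 25.4 in soft, and MALAT1 in stiff had 15.4 against 15.0. Lower spreads, named after they were seen, were those of MALAT1 in soft and of KCNQ1OT1. MALAT1 had nearly the same count in all soft libraries, 275, 273 and 270, an SD of 2.52 where counting error alone would give 16.5. KCNQ1OT1 had an SD of 12.7 in stiff and 20.03 in soft libraries, where counting error would give 32.6 in stiff and 33.1 in soft. Over all genes, pairs of replicates differed by more than counting error, with a chi-square per degree of freedom of 1.53 to 3.86, the highest values in pairs with soft replicate 3.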
